A study of Mus musculus with 6 samples.

Results

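The genes described here belong to the antioxidant programme of the transcription factor NRF2 and to the glutathione, thioredoxin, NADPH and metallothionein systems around it. They were taken as a list of 38 gene symbols, and each was read from the brightest transcript cluster annotated with its symbol (a set of array probes that stands for about 1 gene). Of the 38 genes, 35 had a row among the 22206 clusters tested, each of them 1 cluster, and Prdx6, G6pdx and Tkt had none under the annotation used. RNA came from renal tubular epithelial cells freed from mouse kidneys with collagenase, and was hybridised to Affymetrix whole-transcript arrays, 3 per group. The PT2385 group came from mice given 10 mg/kg of PT2385, an inhibitor that stops the hypoxia-inducible factor HIF-2α from binding its partner ARNT, at 16 h before surgery and at 1, 8 and 20 h after it. The vehicle group received vehicle, whose make-up the labels do not state. Kidneys of both groups had undergone 30 min of ischemia followed by 24 h of reperfusion, so every difference is between 2 injured groups, and no strain or age of the mice is stated. The labels call the groups IRPT and IR, and PT2384 stands once in the protocol where the injections are described.

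In cells at rest the adaptor protein KEAP1 holds NRF2 (gene Nfe2l2) and directs it to degradation. Oxidants and electrophiles modify KEAP1, NRF2 accumulates, pairs with small MAF proteins and binds antioxidant response elements near genes of glutathione synthesis, thioredoxin reduction, NADPH supply and detoxification. Tubular cells of the kidney meet a burst of oxidants when blood flow returns after ischemia, and NRF2 is regulated mainly at the protein level, so its own transcript need not follow its activity.

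The groups differed in more than the compound named in the labels. Of 4 genes of the Y chromosome listed, 3 had a row, and their mean log2 signal was 3.04 to 3.29 on the PT2385 arrays and 8.07 to 8.15 on the vehicle arrays. The labels give no sex, and for every difference below PT2385 and a difference in the sex of the animals cannot be told apart. Proximal tubule markers, such as the endocytic receptor gene Lrp2 and the transporter gene Slc34a1, were all measured (11 of 11) and bright, with mean signals of 10.72 to 11.62 with PT2385 and 11.10 to 11.38 with vehicle. Their differences were positive in 4 and negative in 7, with a median of -0.10, and the groups overlapped in 8. Of the 11, only the organic anion transporter gene Slc22a6 passed, being lower past the threshold of an adjusted p of 0.05 in limma's test over all clusters, at -0.97 (SE 0.10, adjusted p = 0.00572). Markers of the thick ascending limb and distal tubule (8 of 8) had mean signals of 9.18 to 10.11 with PT2385 and 8.59 to 8.63 with vehicle, and all 8 had a positive difference, none past the threshold. Neutrophil markers (6 of 7) had mean signals of 4.73 to 5.56 with PT2385 and 5.70 to 5.93 with vehicle, with 1 positive and 5 negative differences. Of these only the receptor gene Csf3r was past the threshold, at -1.04 (SE 0.16, adjusted p = 0.0326). Macrophage and monocyte markers (8 of 9) had 6.20 to 6.30 with PT2385 and 6.30 to 6.79 with vehicle. Their differences were positive in 3 and negative in 5, with a median of -0.03. Lyz2, the lysozyme gene of myeloid cells, was the only one past the threshold, at -1.19 (SE 0.16, adjusted p = 0.0202), and Lyz2 and Ccr2 (-1.15) were the only ones lower on all 3 PT2385 arrays. The complement genes C1qa, C1qb and C1qc had differences of 0.11, 0.23 and 0.15. Collecting duct markers (9 of 9) had 8.47 to 8.66 with PT2385 and 7.97 to 8.12 with vehicle. All 9 differences were positive, with a median of 0.49, and 7 of the genes were higher on all PT2385 arrays. None of the 9 was past the threshold. Mpo of the neutrophil list and the lymphocyte genes Cd3e, Cd3g, Cd79a and Ms4a1 were at the level of the negative controls. In the isolates, fewer cells of a type and less RNA per cell cannot be told apart, and the part of these cell types in the results below was not tested.

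The antioxidant response element has the core letters TGACNNNGC, and those letters were sought on both strands of the RefSeq promoter windows (GRCm38.p6, 250 bases before to 50 after an annotated start). They were present in the windows of 3781 of 27025 genes (14%) and of 11 of the 33 listed genes that had a window. Gclc, Gsr, Gsta4, Prdx6 and Hmox1 had no window. The 5 windows below are shown to set genes with a match side by side, Gclm, Txnrd1 and Me1 having lower values on all 3 PT2385 arrays, and Prdx1 and Mt2 having overlapping groups. Each is cut at 20 bases after the start, with the matching letters in capitals, read 5′ to 3′ along the gene's strand.
Gclm: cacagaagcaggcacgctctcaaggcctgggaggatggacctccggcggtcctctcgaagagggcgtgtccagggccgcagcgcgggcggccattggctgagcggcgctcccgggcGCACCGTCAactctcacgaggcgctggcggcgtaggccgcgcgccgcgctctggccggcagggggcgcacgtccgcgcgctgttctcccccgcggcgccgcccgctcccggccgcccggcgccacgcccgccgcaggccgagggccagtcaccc
Txnrd1: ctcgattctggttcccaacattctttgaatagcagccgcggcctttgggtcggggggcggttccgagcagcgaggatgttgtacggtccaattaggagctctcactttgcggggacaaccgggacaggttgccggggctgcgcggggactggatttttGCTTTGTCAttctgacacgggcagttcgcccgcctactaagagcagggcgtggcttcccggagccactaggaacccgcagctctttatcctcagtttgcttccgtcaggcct
Me1: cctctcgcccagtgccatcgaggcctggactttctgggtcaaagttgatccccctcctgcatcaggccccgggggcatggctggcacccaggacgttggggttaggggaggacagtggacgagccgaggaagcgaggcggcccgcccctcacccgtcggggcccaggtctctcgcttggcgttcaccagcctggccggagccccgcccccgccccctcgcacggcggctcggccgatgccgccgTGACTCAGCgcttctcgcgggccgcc
Prdx1: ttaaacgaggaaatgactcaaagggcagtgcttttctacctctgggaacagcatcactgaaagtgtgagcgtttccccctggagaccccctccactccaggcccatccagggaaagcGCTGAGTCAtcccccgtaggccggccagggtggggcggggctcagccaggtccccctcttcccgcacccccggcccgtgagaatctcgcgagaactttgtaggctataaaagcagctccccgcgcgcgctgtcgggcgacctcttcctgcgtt
Mt2: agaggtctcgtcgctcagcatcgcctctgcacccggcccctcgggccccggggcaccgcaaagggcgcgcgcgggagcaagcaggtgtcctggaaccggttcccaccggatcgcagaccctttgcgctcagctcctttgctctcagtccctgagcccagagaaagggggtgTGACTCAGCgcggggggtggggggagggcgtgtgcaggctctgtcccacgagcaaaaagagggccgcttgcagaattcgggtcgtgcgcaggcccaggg
The Gclm window lies at chr3:122245307-122245576 on the plus strand, that of Txnrd1 at chr10:82858956-82859225 on the plus strand (1 of 3 windows of that gene), that of Me1 at chr9:86695895-86696164 on the minus strand (1 of 2), that of Prdx1 at chr4:116685349-116685618 on the plus strand and that of Mt2 at chr8:94172368-94172637 on the plus strand. On its own strand the match read TGACGGTGC in Gclm (positions -134 to -126), TGACAAAGC in Txnrd1 (positions -92 to -84) and TGACTCAGC in Me1 (positions -6 to 3), Prdx1 (positions -133 to -125) and Mt2 (positions -79 to -71). Position 1 is the first base of the transcript start and there is no position 0. In Gclm, Txnrd1 and Prdx1 the match is on the opposite strand, so the capitals show its reverse complement. The letters TGACTCAGC also contain the AP-1 motif TGACTCA. The other matches were in Nfe2l2, Gsta3, Srxn1, Pgd, Sod1 and G6pdx. No match was found in the windows of Keap1, Sqstm1, Gss, Nqo1 and Osgin1, genes that also had lower values on all 3 PT2385 arrays. A match describes letters in a window, not a bound site.

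The comparison asked which of these transcripts differed between tubular cells of PT2385-treated and vehicle-treated mice after ischemia and reperfusion. Most of the antioxidant genes had a lower mean with PT2385, but the group values overlapped in 20 of the 35 measured. The heme oxygenase gene Hmox1 and the quinone reductase gene Nqo1 were at 0.479 and 0.494 times the vehicle signal. No lower member passed limma's test over all clusters, except under some of the alternatives given below. The glutathione transferase gene Gsta4 rose and was the only member past the threshold. Genes of glutathione peroxidases, superoxide dismutases and metallothioneins had differences between -0.13 and 0.13, with overlapping groups.
Of the 35 measured genes, 26 had a negative and 9 a positive log2 difference (PT2385 minus vehicle), with a median of -0.13, against 0.02 over all clusters, of which 46.5% were negative. Without PT2385 replicate 1 the members' median was -0.08. Past an adjusted p of 0.05 were 1 higher and 0 lower members, where 0.333% of all clusters were higher and 0.495% lower, 0.829% in all. An unadjusted p under 0.05 was reached by 13 lower and 2 higher members, where 6.54% and 7.94% of all clusters did so. In 12 members all 3 PT2385 values lay under all 3 vehicle values, which held for 9.13% of all clusters, and in 3 members all lay above, which held for 11.6%. The group values of the other 20 members overlapped. The genes were chosen with earlier results of these arrays known, so these counts describe the list and carry no test. Centring every array on its median gave 3 lower members past the threshold (Hmox1, Sqstm1 and Gclm) beside Gsta4. It gave 57 higher and 135 lower clusters in place of 74 and 110, and moved the median over all clusters from 0.02 to -0.03. Quantile normalization and cyclic loess each left Gsta4 as the only member past the threshold. With array weights 6 lower members passed (Gclm, Gsr, Hmox1, Me1, Nqo1 and Sqstm1), and Gstm2 passed beside Gsta4 on the higher side. That setting also raised the calls over all clusters, to 191 higher and 265 lower.

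**Figure D1:**
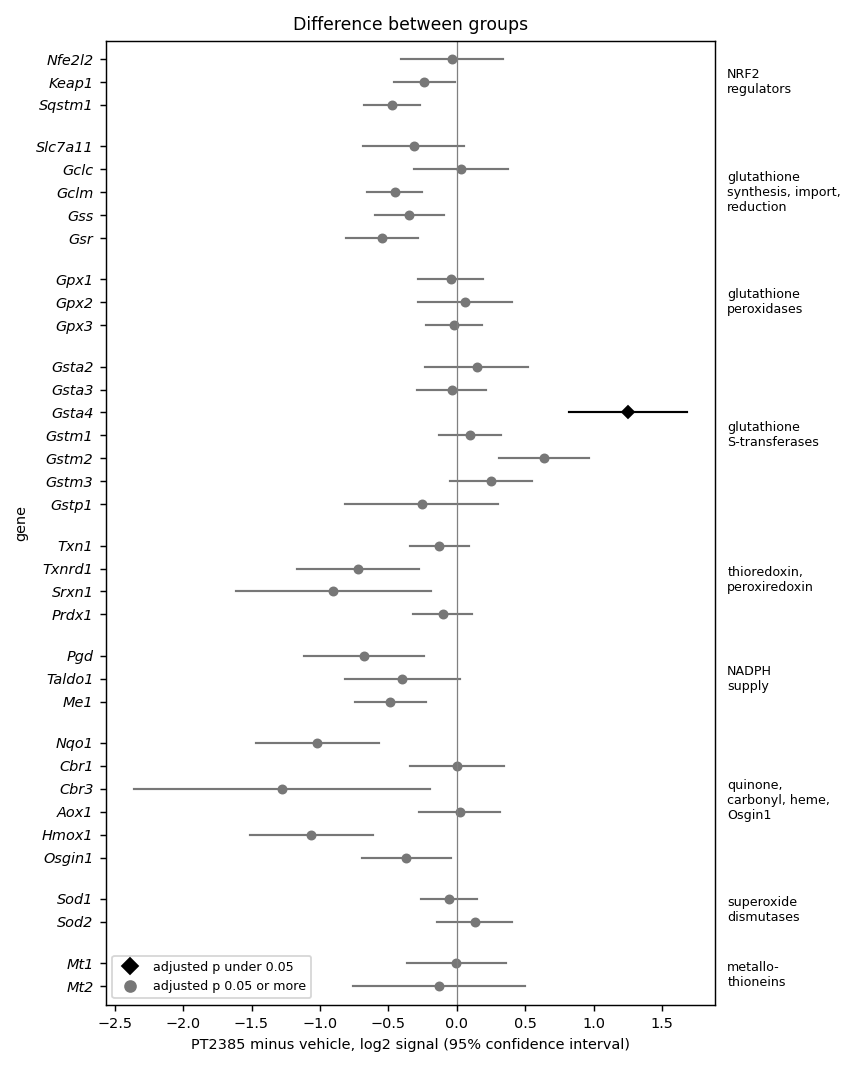
Difference between groups for the 35 measured genes, by role. The x axis gives PT2385 minus vehicle in log2 signal, points are the limma estimates over 3 arrays per group and lines the 95% confidence intervals. Gsta4, the black diamond at 1.25, is the only gene past an adjusted p of 0.05, and Hmox1, Nqo1 and Cbr3 lie lowest, at -1.06, -1.02 and -1.28.

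Among the regulators, the transcript of NRF2 itself did not separate the groups. Nfe2l2 had log2 signals of 7.69, 8.08 and 8.28 on the PT2385 arrays, against 7.97, 8.26 and 7.93 on the vehicle arrays, with the lowest and the highest value both in the PT2385 group. Its difference was -0.04 (SE 0.16, adjusted p = 0.940), with a 95% confidence interval of -0.41 to 0.34. Keap1, which encodes the adaptor that marks NRF2 for degradation, had 6.91, 6.93 and 6.99 on the PT2385 arrays, against 7.08, 7.15 and 7.31 on the vehicle arrays. The 3 PT2385 values were the lower ones, and the difference of -0.24 (SE 0.10, adjusted p = 0.324) did not pass. Sqstm1 encodes p62, an autophagy receptor that binds KEAP1 and is itself an NRF2 target, and it had 10.32, 10.34 and 10.29 on the PT2385 arrays, against 10.81, 10.73 and 10.84 on the vehicle arrays. The groups were each within a narrow band and did not overlap. Its difference was -0.47 (SE 0.09, adjusted p = 0.0591), a signal 0.721 times that with vehicle, and the adjusted p stood between 0.0326 and 0.236 over the alternatives tried.

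Of the 5 genes of glutathione supply, the modifier subunit, the last step of synthesis and the reductase had lower values on all 3 PT2385 arrays, and the catalytic subunit and the importer had overlapping groups. Gclc, the catalytic subunit of glutamate-cysteine ligase, which makes the first bond of glutathione, had 10.87, 11.08 and 11.43 on the PT2385 arrays, against 11.09, 10.97 and 11.23 on the vehicle arrays. These overlapped fully, with a difference of 0.03 (SE 0.15, adjusted p = 0.952) and a 95% confidence interval of -0.32 to 0.37. Gclm, the modifier subunit of the same enzyme, had 10.71, 10.66 and 10.64 on the PT2385 arrays, against 11.13, 11.14 and 11.11 on the vehicle arrays. Every PT2385 array was under every vehicle array, with little spread in either group, and the difference was -0.45 (SE 0.09, adjusted p = 0.0635). Gsr, the reductase that returns oxidised glutathione to its reduced form, had 10.30, 10.41 and 10.54 on the PT2385 arrays, against 10.89, 11.14 and 10.85 on the vehicle arrays. Its groups were also apart, by -0.54 (SE 0.12, adjusted p = 0.0891), and with array weights the adjusted p = 0.0374.
Gss, the synthetase of the second step, differed by -0.35 (SE 0.11, adjusted p = 0.218), with PT2385 values of 9.28 to 9.49 and vehicle values of 9.62 to 9.90. Slc7a11, the light chain of the cystine importer that feeds glutathione synthesis, had 5.71, 5.94 and 6.19 on the PT2385 arrays, against 6.08, 6.55 and 6.16 on the vehicle arrays. PT2385 replicate 3 lay inside the vehicle range, and the difference of -0.31 (SE 0.16, adjusted p = 0.413) did not pass. It was -0.17 without vehicle replicate 2 and -0.19 without PT2385 replicate 1. None of these 5 genes passed the threshold.

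**Figure D2:**
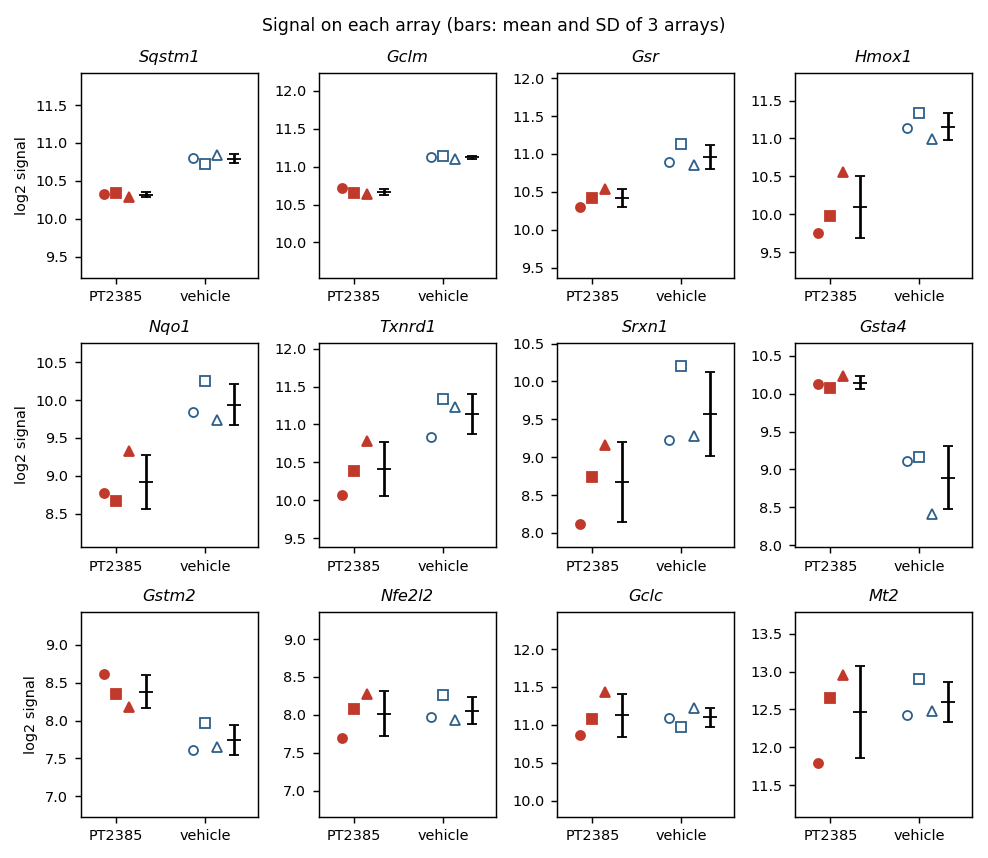
Log2 signal of 12 genes on each array. Circles, squares and triangles are replicates 1, 2 and 3, filled red for PT2385 and open blue for vehicle, bars give the mean and SD of 3 arrays, and all y axes span an equal log2 range, each with its own start. Sqstm1, Gclm, Gsr, Hmox1, Nqo1, Txnrd1 and Srxn1 have all PT2385 values under the vehicle values, Gsta4 and Gstm2 all above, and Nfe2l2, Gclc and Mt2 overlap.

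The glutathione peroxidases, which reduce peroxides with glutathione, showed no separation of the groups. Gpx1, the cytosolic enzyme, had 12.22, 12.19 and 12.08 on the PT2385 arrays, against 12.30, 12.06 and 12.27 on the vehicle arrays, a difference of -0.04 (SE 0.10, adjusted p = 0.880). Gpx3, the plasma enzyme that the proximal tubule secretes, had 13.21, 13.29 and 13.23 on the PT2385 arrays, against 13.32, 13.27 and 13.21 on the vehicle arrays. Those signals stand next to the array maxima of 13.39 to 13.49, where a difference can be understated, and the estimate was -0.02 (SE 0.09, adjusted p = 0.930). Gpx2, an enzyme known mainly from the gut epithelium, had 4.35, 4.74 and 4.77 on the PT2385 arrays, against 4.75, 4.34 and 4.58 on the vehicle arrays, close to the level of the negative controls, whose array medians reached 4.47. Its difference was 0.06 (SE 0.15, adjusted p = 0.888). The 95% confidence intervals were -0.28 to 0.19 for Gpx1 and -0.23 to 0.18 for Gpx3.

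The glutathione S-transferases, which couple glutathione to electrophiles, had 5 positive and 2 negative differences with a median of 0.14, and 1 of the 7 genes passed the threshold. That median was 0.24 without PT2385 replicate 1, 0.08 without PT2385 replicate 3 and 0.29 without vehicle replicate 1. Gsta4 conjugates 4-hydroxynonenal, an aldehyde released from oxidised lipids, and its cluster (TC0900001048.mm.2) had 10.13, 10.07 and 10.24 on the PT2385 arrays, against 9.11, 9.16 and 8.41 on the vehicle arrays. All 3 PT2385 arrays were higher than all vehicle arrays, and vehicle replicate 3 was well under the other two. Gsta4 averaged 10.15 ± 0.08 with PT2385 and 8.89 ± 0.42 with vehicle (SD, n = 3 each), and it rose by 1.25 (SE 0.19, adjusted p = 0.0284), a 2.38-fold signal. The call ended when PT2385 replicate 1, 2 or 3 or vehicle replicate 1 or 2 was left out (adjusted p = 0.0547, 0.140, 0.0623, 0.0629 and 0.0551), and over all 6 single-array omissions the difference stayed between 1.01 and 1.39.
Gstm2, a mu-class transferase, had 8.61, 8.35 and 8.18 on the PT2385 arrays, against 7.61, 7.97 and 7.65 on the vehicle arrays. Its groups did not overlap, with a difference of 0.64 (SE 0.14, adjusted p = 0.106) that did not pass, against an adjusted p = 0.0492 with array weights. Gstm3 was also higher on all PT2385 arrays, though its lowest PT2385 and highest vehicle values were both 6.63, and it differed by 0.25 (SE 0.13, adjusted p = 0.426). Gstm1 differed by 0.10, Gsta2 by 0.14 and Gsta3 by -0.04, with adjusted p from 0.692 to 0.901. Gstp1, the pi-class transferase, had 9.03, 9.61 and 10.02 on the PT2385 arrays, against 9.91, 10.05 and 9.48 on the vehicle arrays. The PT2385 arrays spanned a wider range than the vehicle arrays and overlapped them, and the estimate was -0.26 (SE 0.25, adjusted p = 0.664). The alpha, mu and pi classes each hold near-identical neighbours, so a cluster may also catch transcripts of a relative, and Gstp2 had much the same estimate as Gstp1, at -0.27 (SE 0.21, adjusted p = 0.588).

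In the thioredoxin system the reductase and sulfiredoxin had lower values on all 3 PT2385 arrays, and the groups overlapped for thioredoxin and Prdx1. Txnrd1, the cytosolic thioredoxin reductase and a classical NRF2 target, had 10.07, 10.39 and 10.78 on the PT2385 arrays, against 10.83, 11.34 and 11.23 on the vehicle arrays. The highest PT2385 array was just under the lowest vehicle array. Its difference was -0.72 (SE 0.19, adjusted p = 0.164), 0.607 times the vehicle signal. Srxn1, the sulfiredoxin that repairs over-oxidised peroxiredoxins, had 8.11, 8.74 and 9.16 on the PT2385 arrays, against 9.23, 10.21 and 9.28 on the vehicle arrays. PT2385 replicate 1 was the lowest and vehicle replicate 2 the highest by a wide margin, and the difference of -0.90 (SE 0.31, adjusted p = 0.252) had a 95% confidence interval of -1.62 to -0.19. Without vehicle replicate 2 it was -0.58. Txn1, thioredoxin itself, differed by -0.13 (SE 0.09, adjusted p = 0.569), and Prdx1, a thioredoxin-dependent peroxidase, by -0.10 (SE 0.09, adjusted p = 0.640), both with overlapping groups. The window of Prdx1 shown above holds the same 9 letters as that of Me1, whose difference was -0.49. Whether these letters and the differences are linked was not tested.

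The enzymes that supply NADPH, the reducing power of both systems, were measured for 3 of 5 genes, and all 3 had negative differences. Pgd, the phosphogluconate dehydrogenase of the pentose phosphate pathway, had 8.83, 9.32 and 9.67 on the PT2385 arrays, against 9.84, 10.07 and 9.95 on the vehicle arrays. The groups did not overlap, PT2385 replicate 1 being far under the rest, and the difference was -0.68 (SE 0.19, adjusted p = 0.184). Me1, the cytosolic malic enzyme, had 10.88, 10.67 and 10.90 on the PT2385 arrays, against 11.20, 11.24 and 11.47 on the vehicle arrays. Here too all PT2385 values were the lower ones, by -0.49 (SE 0.11, adjusted p = 0.119), and with array weights the adjusted p = 0.0447. Taldo1, transaldolase, had 8.55, 8.80 and 9.09 on the PT2385 arrays, against 9.10, 9.56 and 8.96 on the vehicle arrays. PT2385 replicate 3 exceeded vehicle replicate 3, and the difference of -0.40 (SE 0.18, adjusted p = 0.369) did not pass. Without vehicle replicate 2 it was -0.22.

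Quinone, carbonyl and heme enzymes held the lowest differences of the list. Hmox1, the inducible heme oxygenase that degrades heme to biliverdin, iron and carbon monoxide, had 9.75, 9.98 and 10.55 on the PT2385 arrays, against 11.14, 11.34 and 11.00 on the vehicle arrays. No PT2385 array reached a vehicle array, and PT2385 replicate 3 was the nearest to them. The difference was -1.06 (SE 0.20, adjusted p = 0.0566) with a 95% confidence interval of -1.51 to -0.61, or 0.479 times the vehicle signal. Hmox1 is also induced by hypoxia and heme and is expressed by macrophages, whose markers are given above. Nqo1, the quinone reductase most often used as a readout of NRF2, had 8.77, 8.67 and 9.33 on the PT2385 arrays, against 9.84, 10.25 and 9.74 on the vehicle arrays. The groups were apart, by -1.02 (SE 0.20, adjusted p = 0.0649), or 0.494 times the vehicle signal. Without PT2385 replicate 3 both genes passed the threshold, Hmox1 at -1.29 (adjusted p = 0.00986) and Nqo1 at -1.22 (adjusted p = 0.0210), whereas without PT2385 replicate 2 their adjusted p = 0.257 and 0.265.
Cbr3, a carbonyl reductase, had 5.08, 5.69 and 6.78 on the PT2385 arrays, against 6.43, 8.01 and 6.96 on the vehicle arrays. These values were the most scattered of the list in both groups, and the difference of -1.28 (SE 0.47, adjusted p = 0.278) came with overlapping groups. Cbr1, its neighbour on the same chromosome, had overlapping groups (adjusted p = 0.996). Osgin1, an oxidative stress-induced growth inhibitor, was lower on all 3 PT2385 arrays, by -0.37 (SE 0.14, adjusted p = 0.296). Aox1, an aldehyde oxidase, had means of 4.10 with PT2385 and 4.08 with vehicle, both within the level of the negative controls.

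The superoxide dismutases, which turn superoxide into hydrogen peroxide, did not separate the groups. Sod1, the copper-zinc enzyme of the cytosol, had 10.64, 10.57 and 10.67 on the PT2385 arrays, against 10.75, 10.68 and 10.64 on the vehicle arrays, a difference of -0.06 (SE 0.09, adjusted p = 0.804). Sod2, the manganese enzyme of mitochondria, had 11.32, 11.11 and 10.95 on the PT2385 arrays, against 11.08, 10.87 and 11.04 on the vehicle arrays, a difference of 0.13 (SE 0.12, adjusted p = 0.655). Neither passed the test, and both pairs of groups overlapped.

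The metallothioneins are small cysteine-rich proteins that bind zinc and copper and take up oxidants, and their genes respond to metals, glucocorticoids and oxidative stress. Mt1 had 12.61, 13.05 and 13.16 on the PT2385 arrays, against 12.86, 13.14 and 12.83 on the vehicle arrays. Mt2 had 11.79, 12.65 and 12.96 on the PT2385 arrays, against 12.42, 12.91 and 12.48 on the vehicle arrays. In both genes PT2385 replicate 1 was the lowest of the 6 arrays and PT2385 replicate 3 the highest, so that the spread within the PT2385 group contained the vehicle group. The differences were -0.01 (SE 0.16, adjusted p = 0.992) for Mt1 and -0.13 (SE 0.28, adjusted p = 0.860) for Mt2, and the 95% confidence interval of -0.76 to 0.49 for Mt2 leaves a wide range. Without PT2385 replicate 1 the values were 0.16 and 0.21. The highest Mt1 signals, 13.16 with PT2385 and 13.14 with vehicle, stand near the array maxima of 13.39 to 13.49, where a difference can be understated. The 2 genes are close in sequence, so each cluster may also catch transcripts of the other, which was not tested.

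**Figure D3:**
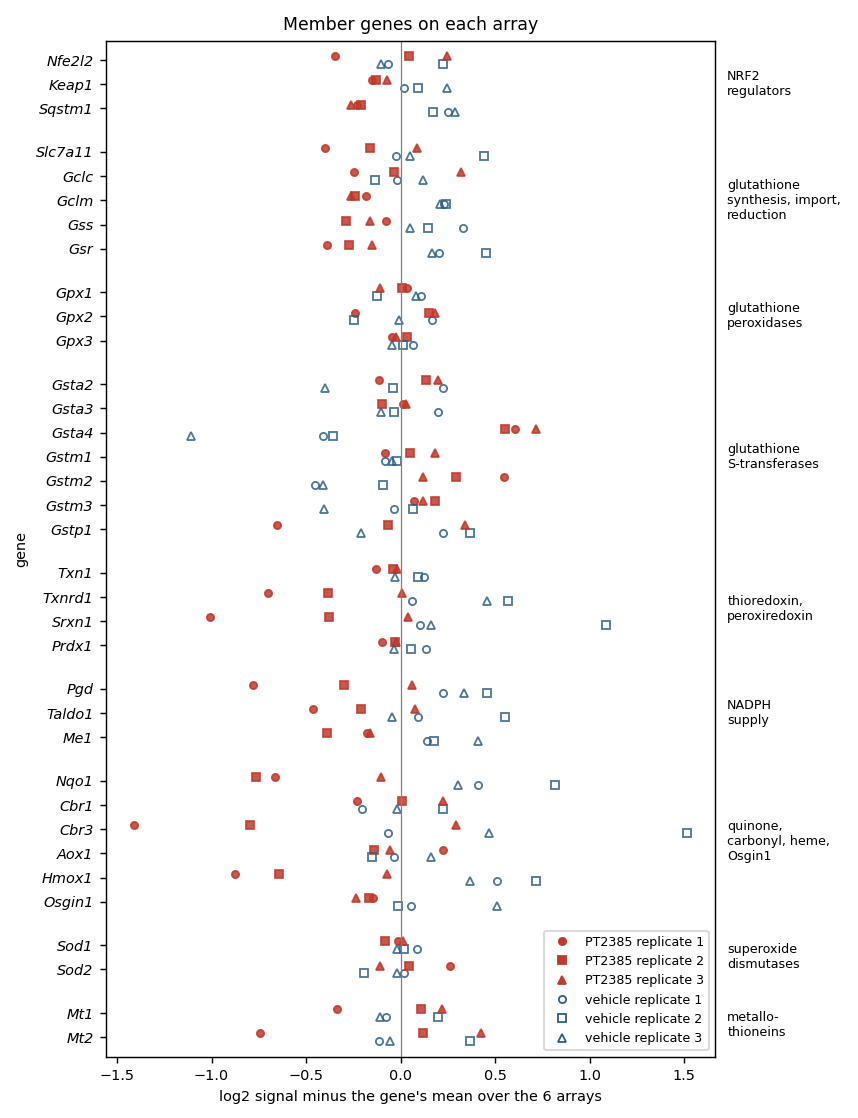
Each measured gene on each array, as log2 signal minus the gene's mean over the 6 arrays (x axis), with genes grouped by role. Filled red symbols are PT2385 and open blue symbols vehicle, with circles, squares and triangles for replicates 1, 2 and 3. PT2385 replicate 1 (filled circles) is often the leftmost and vehicle replicate 2 (open squares) often the rightmost symbol.

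The 3 PT2385 arrays were not alike in these genes. PT2385 replicate 1 had the lowest value of its group in 22 of the 35 genes (62.9%), against 37.3% of all clusters, and PT2385 replicate 3 had the highest in 25 (71.4%), against 35.0% of all clusters. In the vehicle group replicate 2 had the highest value in 19 of the genes (54.3%), against 32.4% of all clusters. Averaged over the 35 genes, the deviation from the mean over 6 arrays was -0.26, -0.12 and 0.06 on PT2385 replicates 1, 2 and 3 and 0.07, 0.22 and 0.03 on vehicle replicates 1, 2 and 3, so the mean of PT2385 replicate 3 lay among the vehicle arrays. Over the 12 genes lower on all PT2385 arrays, which were picked for that pattern, it was -0.45, -0.35 and -0.11 with PT2385 and 0.21, 0.41 and 0.29 with vehicle. The same arrays stood in a like order for neutrophil markers, with -0.73, -0.32 and 0.09 on PT2385 replicates 1, 2 and 3 and 0.26, 0.46 and 0.24 on the vehicle arrays. For markers of the thick ascending limb and distal tubule the PT2385 arrays stood in the opposite order, with 1.00, 0.42 and 0.07. The vehicle arrays were close together for these markers, at -0.51, -0.50 and -0.48. Collecting duct markers had 0.35, 0.26 and 0.16 with PT2385 and -0.34, -0.25 and -0.19 with vehicle. Proximal tubule markers had 0.40, -0.08 and -0.49 with PT2385 and 0.11, -0.11 and 0.17 with vehicle. Macrophage and monocyte markers did not stand in the order of the neutrophil markers, with -0.17, -0.07 and -0.13 with PT2385. On the vehicle arrays they had 0.41, -0.07 and 0.03. Whether these markers and the antioxidant genes are linked was not tested.

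**Figure D4:**
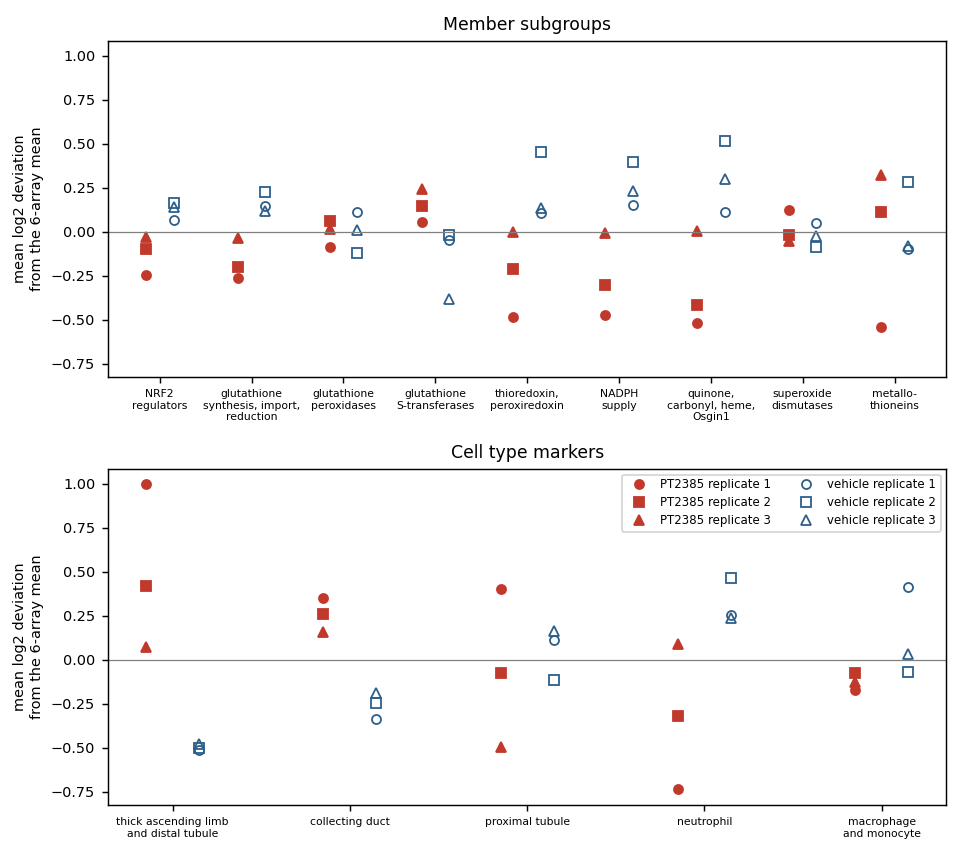
Mean log2 deviation from the 6-array mean (y axis) of each role group of the antioxidant genes (top) and of marker lists of kidney and blood cell types (bottom), 1 symbol per array. Filled red symbols are PT2385 and open blue symbols vehicle. In the thioredoxin, NADPH and quinone groups the PT2385 arrays lie under the vehicle arrays with replicate 1 lowest, and the limb and distal markers show the PT2385 arrays above the vehicle arrays with replicate 1 highest.

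Other genes of the same pathways, 99 in all of which 90 had a row, gave 2 higher and 2 lower genes past the threshold, where 0.333% of all clusters were higher and 0.495% lower, and a median difference of -0.08. Abcc3, a transporter that exports glutathione and glucuronide conjugates across the basolateral membrane, had 8.69, 8.11 and 8.15 on the PT2385 arrays, against 6.08, 6.59 and 6.63 on the vehicle arrays. The groups were far apart and it rose by 1.88 (SE 0.20, adjusted p = 0.00482), a 3.68-fold signal, and it passed under all 16 alternatives tried (adjusted p from 0.00186 to 0.0281). Abcc2, the related exporter of the brush border membrane, had 10.76, 10.43 and 10.43 on the PT2385 arrays, against 11.28, 11.63 and 11.28 on the vehicle arrays. It changed in the other direction, by -0.85 (SE 0.14, adjusted p = 0.0384), and lost the call under 7 of 16 alternatives (adjusted p up to 0.205).
Gpx6, a glutathione peroxidase known from the olfactory epithelium, had 9.68, 9.02 and 8.86 on the PT2385 arrays, against 7.69, 7.55 and 8.14 on the vehicle arrays. It rose by 1.39 (SE 0.23, adjusted p = 0.0373) and lost the call under 4 of 16 alternatives (adjusted p up to 0.146). Ugdh, which makes UDP-glucuronate for conjugation, fell by 0.92 (SE 0.16, adjusted p = 0.0426) on the log2 scale and lost the call under 7 of 16. The next in rank did not pass. The difference of Ephx1, the microsomal epoxide hydrolase, was 0.68 (SE 0.16, adjusted p = 0.114), and Gsto1, an omega-class transferase, had 0.39 (SE 0.11, adjusted p = 0.175). On the lower side Oplah, the 5-oxoprolinase of the glutathione cycle, had -0.54 (SE 0.11, adjusted p = 0.0898) and Blvrb, a biliverdin reductase, -0.77 (SE 0.19, adjusted p = 0.135).
By group, the other transferases had a median of 0.14 (15 genes, 0 past the threshold), the other NRF2-linked detoxification and iron genes -0.27 (21 genes, 1 higher and 2 lower), the other glutathione genes -0.07 (18 genes, 1 higher) and the other NADPH and peroxide enzymes 0.10 (10 genes, 0). NRF2 partners and regulators had -0.12 (8 genes, 0), the other thioredoxin genes -0.08 (13 genes, 0) and the metal response genes -0.03 (5 genes, 0). For Mafk, a small MAF partner of NRF2, the estimate was -0.37 (SE 0.10, adjusted p = 0.163), and for Bach1, a repressor that competes at the same elements, -0.13 (SE 0.10, adjusted p = 0.576). Of these 8 partners and regulators 7 had a negative difference. The 1 positive was Nfe2l1, higher on all PT2385 arrays, at 0.22 (SE 0.09, adjusted p = 0.339).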

How the data were processed

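Gene expression was measured on 6 Affymetrix arrays, 3 from each group. The authors' deposited values are log2 signals, 1 per transcript cluster and array, and the submitters' processing notes name Transcriptome Analysis Console without a version. The sources used here give neither the normalization nor the genome build. Array medians lay between 6.20 and 6.25. Of 28846 rows, 6640 control rows were left out. Groups were compared over the other 22206 clusters with limma 3.58.1 in R 4.3.3 (lmFit and eBayes, 2-sided, Benjamini-Hochberg over all clusters, threshold 0.05), with treatment as the only term. The fit was tested on simulated data. Symbols came from the platform annotation, and promoter windows from RefSeq (GRCm38.p6).

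The genes, their role groups and the other lists were chosen with earlier results of these data known, so no test over a list was made. Values on each array are given for genes past the threshold, for the 2 genes with the smallest unadjusted p in each role group (all where 3 or fewer are measured) and for Nfe2l2, Nqo1, Hmox1, Gclc, Gclm, Txnrd1, Srxn1 and Slc7a11. Of the other pathway genes, those past the threshold and the 4 higher and 4 lower with the smallest p are named. Array values of Cbr3 and Gstp1, and values of Gstp2, Mafk, Bach1, Nfe2l1 and the markers Csf3r, Lyz2 and Slc22a6, were added after the values were seen. Nothing in the labels ties the arrays to different animals, so p-values reflect only how far these samples scatter, and that scatter may be technical. Arrays of 1 group correlated at 0.988 to 0.995. The number of arrays limits the precision.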

Additional observations from a re-analysis of the deposited data

How the results depend on the processing

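Counts of calls and the differences of the 23 genes with values on each array under the naming rule were recomputed under 16 alternatives, and medians of the members and role groups under 13 of them (not under the replicate block, trend and robust eBayes or without the X and Y chromosomes). Other named members, such as Cbr3, Gss, Gstp1 and Osgin1, were recomputed only for the counts and medians. Of the values for those 23 genes, 327 kept their direction and their side of the threshold, 15 were newly past it, 5 (all Gsta4) were no longer past it and 21 changed sign, none of these past it. With array weights 456 clusters passed and 8 members, 6 of them lower. With a trend and robust eBayes fit 4 members passed, 3 of them lower, among 78 higher and 127 lower clusters. With each array centred on its median also 4 members passed, 3 of them lower, among 57 higher and 135 lower clusters. Leaving out 1 array gave 42 to 179 clusters (the fewest without PT2385 replicate 2), 0 to 2 members and 1 to 4 other pathway genes (1, Abcc3, without PT2385 replicate 2 or any vehicle replicate, and 2 without PT2385 replicate 3). Without vehicle replicates 1, 2 and 3 the clusters numbered 81, 65 and 72. The median difference of the members stayed between -0.17 and -0.08. Sign changes were in genes near 0. Nfe2l2 was 0.012 with quantile normalization, 0.0059 with cyclic loess and 0.010 with array weights, Gpx2 was -0.011 with quantile normalization and -0.013 with cyclic loess, Mt1 was 0.0062 with cyclic loess and 0.063 with array weights, and Gclc was -0.019 with centred arrays. Leaving out 1 array gave -0.17 to 0.13 for Nfe2l2, -0.13 to 0.16 for Gclc, -0.048 to 0.20 for Gpx2, -0.12 to 0.00018 for Gpx1, -0.050 to 0.0042 for Gpx3, -0.12 to 0.16 for Mt1 and -0.38 to 0.21 for Mt2. The cause was not tested, apart from the fewer arrays of the last setting. Same-numbered samples did not deviate together (correlations of 0.14, 0.03 and -0.06 across clusters). These correlations cannot show whether the samples were collected or processed as pairs. With the replicate number as a block 178 clusters, 1 member (Gsta4, 1.25, adjusted p = 0.0278) and 3 other pathway genes passed. The alternative of a dimmer cluster was not run, since 0 members had several clusters. With 3 arrays per group, small differences can be missed.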
